A study of Mus musculus with 2 samples.

Results

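The genes described here are 10 C-type lectin receptors that are used to tell type 2 conventional dendritic cells (cDC2) and their relatives apart: Cd209a, Cd209d, Clec10a, Mgl2, Clec4a1, Clec4a3, Clec12a, Clec7a, Clec4n and Ly75. They were taken by symbol from the 32285 gene rows of the count tables, and 9 of the 10 had a row. Clec7a, which encodes Dectin-1 and which GENCODE lists as a polymorphic pseudogene (GRCm38 chr6:129461591-129472779, minus strand), was not analysed here.

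Single-cell RNA was measured in CD11c-enriched spleen cells from naive female C57BL/6J mice aged 4 months, from which live CD45.2+ CD11c+ cells had been sorted. The WT library (H2-Aa +/+) and the H2-Aa cit/cit library each pooled cells of 3 mice. The cit allele, called citation, came from ENU mutagenesis, is present in every cell of the mouse, and the animals are deficient in the alpha chain of the MHC class II molecule I-A. Since there is 1 library per genotype, and no barcode can be traced to a single mouse, no difference between the genotypes could be tested, and all intervals are 95% intervals for counting error only.

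The WT library held 7814 cells with a median of 5492 unique molecular identifiers (UMIs) per cell, and the H2-Aa cit/cit library held 11525 cells with a median of 5633. H2-Aa itself stood at 5409.7 UMIs per 1000000 UMIs (CPM) for WT and at 66.2 CPM for H2-Aa cit/cit, in the direction of the labels. Ribosomal protein genes took a median of 11.3% of a cell's UMIs for WT and 16.5% for H2-Aa cit/cit. The libraries shared 31 cell barcodes. Cox6a2, a gene of a cytochrome c oxidase subunit that in WT was seen mainly in pDC-like cells, was at 0.734 CPM for WT and 134 CPM for H2-Aa cit/cit in the most numerous cDC2 class, and 1 unsupervised cluster there held 829 H2-Aa cit/cit cells and 2 WT cells. Of the cDC1-like cells, those of WT fell mostly in other clusters than those of H2-Aa cit/cit, where 1 cluster held 501 H2-Aa cit/cit and 6 WT cells.

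C-type lectin receptors are membrane proteins that read sugars, or in some cases proteins and crystals, on microbes and dying cells. Those of dendritic cells differ in what follows binding: some carry ligand into endosomes for presentation, some signal through Syk and CARD9 or through the Fc receptor gamma chain, and some carry an inhibitory ITIM motif that recruits the phosphatases SHP-1 and SHP-2. In the spleen cDC2 are heterogeneous. One branch with ESAM depends on Notch2 and another resembles monocytes and has CCR2 and CLEC12A, while cDC1 are known for DEC-205 and Clec9a.

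Cells were placed in 15 classes from marker genes that included no C-type lectin, and 12 of these had at least 50 cells in both libraries and were compared. The main cDC2-like class was marked by Ffar2, at 312 CPM for WT and 319 CPM for H2-Aa cit/cit, and is what remained after the other gates; it held 1740 and 4758 cells. Ccr2 cDC2-like cells (174 and 440) had a Ccr2 UMI and a high score over Ccr2, Lyz2, Csf1r, Klf4 and Lgals3, and Lyz2 cDC2-like cells (187 and 364) had that score with no Ccr2 UMI. A class gated on Ly6c2 together with Tcf4, Siglech, Cx3cr1 and Bst2 (60 and 152 cells) had Ccr2 as well as Ly6c2 among its 10 leading genes, so that it was given no cell type name and is called Ly6c2+ Tcf4+ cells. The other compared classes were pDC-like, cDC1-like, mature DC-like without cDC1 genes, proliferating, low-ribosomal, monocyte-like, macrophage-like, and cells with Negr1 and Pparg. Mature DC-like cells without cDC1 genes had no UMI of the cDC1 genes counted, so this class depends on depth (medians of 5801 UMIs for WT and 4722.5 for H2-Aa cit/cit). Markers of B, T and NK cells were near 0 in the Ffar2 class, where Cd79a, Cd3e and Ncr1 had at most 7 UMIs in a library.

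Many cells lay close to a score limit. In the Lyz2 cDC2-like class 36.4% of WT cells and 36.8% of H2-Aa cit/cit cells lay within 0.1 of a limit. Lyz2, one of the gating genes, was itself lower in H2-Aa cit/cit in both classes that it gates: 1309 and 486 CPM in the Lyz2 class, and 2162 and 846 CPM in the Ccr2 class. The sizes of these classes are therefore not compared between genotypes, and a gate without Lyz2, chosen after seeing the data, was run beside it. Its ratios are given where they lie on the other side of 1.5-fold. Detection of a Ccr2 UMI, which divides these classes, also depends on level and depth. Ccr2 was at 431 and 336 CPM in the Ccr2 class, and median depth was 8478 and 7307 UMIs in the Lyz2 class. The part of this division in the ratios was not tested. In the Ffar2 class, the remainder of the gates, Ccr2 was at 4.48 CPM for WT and 9.59 CPM for H2-Aa cit/cit (61 and 328 UMIs). Lyz2 was there at 26.5 and 24.4 CPM. The part of cell make-up in the ratios of the Ffar2 class was not tested either.

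The members lie on 4 chromosomes, and close relatives lie side by side. On GRCm38, Cd209a (chr8:3743397-3748984) and Cd209d (chr8:3871824-3878555), both on the minus strand and both related to human DC-SIGN, are 123 kb apart with Cd209e between them. Mgl2 (chr11:70130329-70137550) and Clec10a (chr11:70156197-70170834), the receptors CD301b and CD301a for galactose and N-acetylgalactosamine, are 18.6 kb apart on the plus strand with no coding gene between them. Clec4a1 (chr6:122921848-122934619) and Clec4a3 (chr6:122952515-122969875), of the DCIR family, are 17.9 kb apart on the plus strand, again with no coding gene between them, and Clec4n, which encodes Dectin-2 (chr6:123229843-123247021, plus strand), lies 260 kb further on. Clec12a (chr6:129342691-129365303, plus strand) encodes an inhibitory receptor with an ITIM. Ly75 (chr2:60292103-60383303, minus strand) encodes the endocytic receptor DEC-205 and overlaps Gm13571 on the other strand, so that reads of this pair cannot be told apart if counting ignored strand. In the last 500 bases of the annotated transcripts, where 3′ reads fall, no 91-base stretch was shared with another gene except in Clec10a, where 7.52% of the stretches were shared with Mgl2.

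Promoters are shown for the pairs whose patterns are compared below. They are the 250 bases before a RefSeq transcript start on GRCm38.p6, which the reference tables held for 8 of the 10 genes. In Cd209a (chr8:3748985-3749234) and Cd209d (chr8:3878500-3878749), both minus strand and read 5′ to 3′ along the gene, capitals mark the motifs that were found.
Cd209a: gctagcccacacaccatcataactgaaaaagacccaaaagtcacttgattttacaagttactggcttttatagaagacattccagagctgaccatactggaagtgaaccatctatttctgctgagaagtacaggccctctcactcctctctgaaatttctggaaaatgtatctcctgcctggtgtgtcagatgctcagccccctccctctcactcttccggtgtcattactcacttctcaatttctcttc
Cd209d: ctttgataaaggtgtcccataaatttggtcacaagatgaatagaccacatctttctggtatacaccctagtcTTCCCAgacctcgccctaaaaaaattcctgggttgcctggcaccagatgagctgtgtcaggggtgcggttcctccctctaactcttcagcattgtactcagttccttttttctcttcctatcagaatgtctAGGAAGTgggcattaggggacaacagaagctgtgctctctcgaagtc
The motifs searched on both strands were AGGAAGT, bound by PU.1 and other ETS factors, which 7.69% of 32851 promoters hold; CAGGTG, an E-box of the E proteins such as TCF4, in 17.2%; TGGGAA, bound by RBPJ, in 21.6%; and the interferon-stimulated response motif of the IRF factors, GAAA and GAAA with any pair of bases between them, in 2.98%. The Cd209d window held AGGAAGT 47 bases before the start and TGGGAA on the opposite strand 178 bases before it, and the Cd209a window held no match. Of the other member promoters, the one of Mgl2 held AGGAAGT, 250 bases before its start.

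For the neighbours Clec4a1 (chr6:122921598-122921847) and Clec4a3 (chr6:122952394-122952643, the window of its second annotated start), capitals mark the longest run of bases that the windows share.
Clec4a1: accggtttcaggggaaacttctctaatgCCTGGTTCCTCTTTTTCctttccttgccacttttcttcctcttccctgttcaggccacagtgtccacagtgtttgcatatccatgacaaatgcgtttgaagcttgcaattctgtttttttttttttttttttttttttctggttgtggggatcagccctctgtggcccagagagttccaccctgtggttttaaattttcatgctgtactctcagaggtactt
Clec4a3: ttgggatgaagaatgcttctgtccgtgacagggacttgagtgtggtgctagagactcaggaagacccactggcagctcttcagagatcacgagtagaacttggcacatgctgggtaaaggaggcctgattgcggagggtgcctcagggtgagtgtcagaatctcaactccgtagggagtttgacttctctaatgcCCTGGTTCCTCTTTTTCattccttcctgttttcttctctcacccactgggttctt
This run, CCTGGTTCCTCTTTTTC, is 17 bases long and begins 222 bases before the Clec4a1 start and 55 bases before the Clec4a3 start; of 32851 promoters, 2 hold it. Over the 28 pairs of member genes the next longest shared run was 11 bases and the median was 8, with 9 bases for Cd209a and Cd209d. A shared run or a motif describes the letters and is no evidence of binding.

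Each lectin had its highest levels in a few classes, largely the same ones in both libraries. Cd209a, Clec10a and Mgl2 belonged to Ccr2 cDC2-like cells and, for the first pair, to cells with Tcf4. Cd209d belonged to Ly6c2+ Tcf4+ and pDC-like cells. Clec4a1 and Clec4a3 peaked in monocyte-like and Negr1 cells and Clec4n in macrophage-like cells. Clec12a was spread over pDC-like, macrophage-like, Ccr2 cDC2-like and cDC1-like cells, among others. Ly75 was low in every cDC2 class. Levels of different genes are not compared with each other, since 3′ UMI counts depend on each gene's capture.

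**Figure D1:**
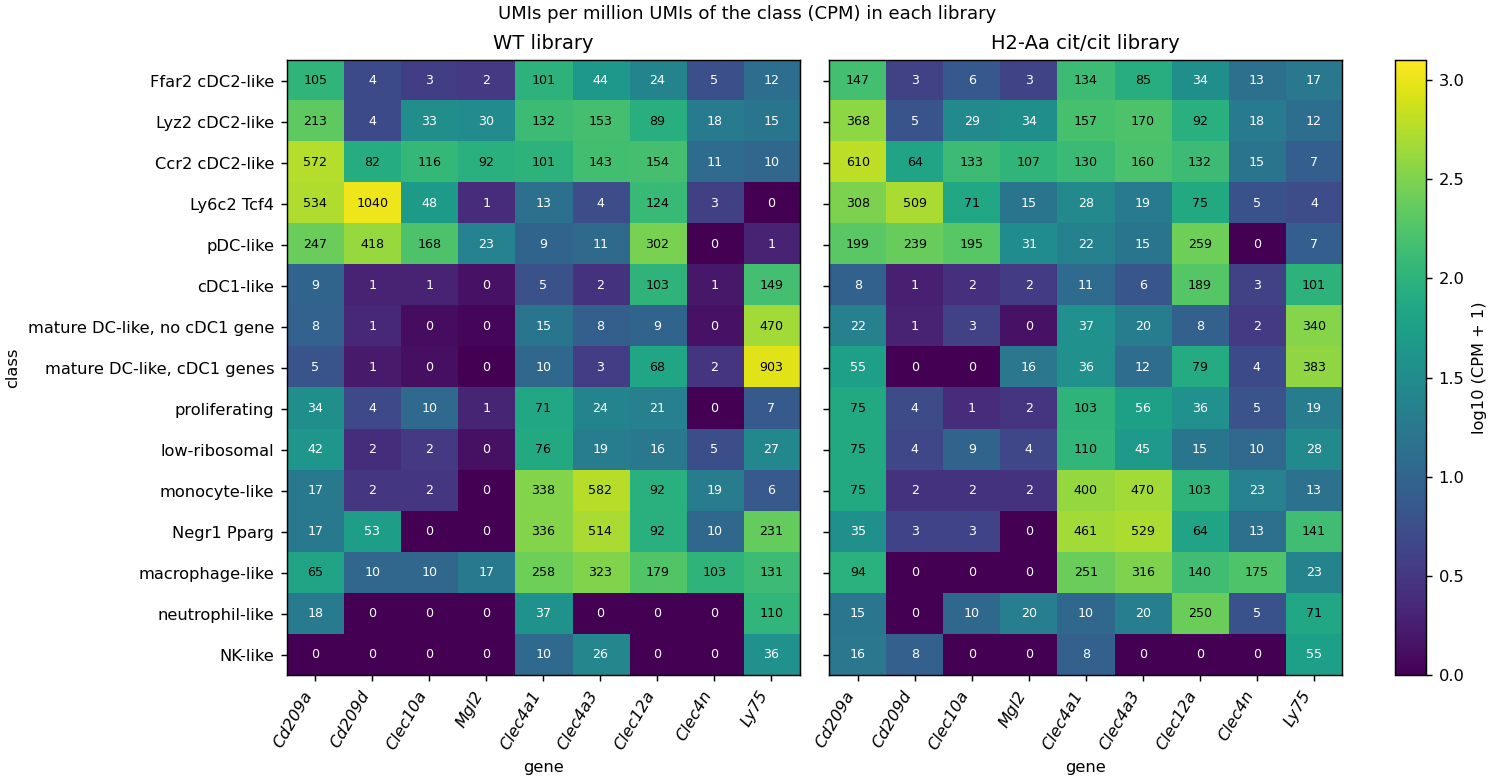
Level of each lectin receptor gene (columns) in each class of cells (rows), printed in CPM of the class and coloured by log10 (CPM + 1), for the WT library (left) and the H2-Aa cit/cit library (right). Cd209d reaches 1040.5 CPM in WT Ly6c2+ Tcf4+ cells and stays under 6 CPM in Ffar2 and Lyz2 cDC2-like cells, while Clec4a1 and Clec4a3 are highest in the monocyte-like and Negr1 classes.

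Cd209a, the DC-SIGN relative used to mark cDC2, was highest in Ccr2 cDC2-like cells, at 572 CPM for WT and 610.5 CPM for H2-Aa cit/cit. Next in WT came Ly6c2+ Tcf4+ cells at 534 CPM, whose interval overlapped that of the Ccr2 class, then pDC-like cells at 247 CPM and Lyz2 cDC2-like cells at 213 CPM, which overlapped each other, and Ffar2 cDC2-like cells at 105 CPM. In H2-Aa cit/cit the order after the Ccr2 class was Lyz2 cDC2-like cells at 368 CPM, Ly6c2+ Tcf4+ cells at 308 CPM, pDC-like cells at 199 CPM and Ffar2 cDC2-like cells at 147 CPM, with no overlap between these neighbours. cDC1-like cells had 8.90 and 8.26 CPM. The Ffar2 class was so large that it still held 35.8% of all Cd209a UMIs for WT and 49.4% for H2-Aa cit/cit, against 27.0% and 22.4% in the Ccr2 class.

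Between the libraries, Cd209a moved differently in different classes. It was the same within counting error in Ccr2 cDC2-like cells (log2 ratio of H2-Aa cit/cit over WT 0.09, interval -0.01 to 0.20). In Ffar2 cDC2-like cells it was higher in H2-Aa cit/cit by 0.49 on the log2 scale (0.41 to 0.58), short of 1.5-fold, and by 0.59, just past it, with classes from clusters. In Lyz2 cDC2-like cells the 327 UMIs of WT and 1043 UMIs of H2-Aa cit/cit gave a level 1.73 times higher in H2-Aa cit/cit (1.53 to 1.96; log2 ratio 0.79). Without Lyz2 in the score that last ratio was 0.33, under 1.5-fold, and it was past 1.5-fold in 8 of the 9 alternatives.

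In Ly6c2+ Tcf4+ cells Cd209a went the other way, from 534 CPM to 308 CPM (log2 ratio -0.79, -0.99 to -0.59), and without the cells of highest doublet score the ratio was -0.58, just under 1.5-fold. Other genes of this class also differed between the libraries. Of the gate genes, Cx3cr1 was at 259 and 130 CPM and Tcf4 at 2241 and 1859 CPM. The gate genes Ly6c2 (845 and 803 CPM) and Siglech (208 and 198 CPM) were close. Outside the gate, Lyz2 was at 237 and 51.1 CPM and Ffar2 at 7.28 and 50.5 CPM. The part of cell make-up in the lectin ratios was not tested. pDC-like cells had 247 and 199 CPM of Cd209a (log2 ratio -0.31, -0.62 to 0.00).

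Outside the classes named cDC2-like, Cd209a was low in WT and past 1.5-fold higher in H2-Aa cit/cit in 5 classes. Ffar2, the marker of the main cDC2-like class, was at 297 and 287 CPM in proliferating cells and 134 and 153 CPM in low-ribosomal cells. Both classes may therefore hold cDC2. Mature DC-like cells without cDC1 genes had 8.41 and 21.5 CPM (63 and 108 UMIs; log2 ratio 1.36, 0.90 to 1.83), proliferating cells 34.5 and 75.1 CPM (1.12, 0.73 to 1.54) and low-ribosomal cells 41.7 and 74.6 CPM (0.84, 0.60 to 1.09). Monocyte-like cells had 8 UMIs for WT and 40 for H2-Aa cit/cit, of which 13 came from 1 cell, and the Negr1 class had 12 and 11 UMIs with an interval that included 0.

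Once depth was made equal, shares of cells had the direction of the levels in the cDC2-like classes and in Ly6c2+ Tcf4+ cells, but not in pDC-like cells. With each cell thinned to 1500 UMIs, which removed 734 WT cells and 958 cells from H2-Aa cit/cit, a Cd209a UMI was found in 42.0% (34.5 to 49.7) and 48.9% (44.1 to 53.6) of Ccr2 cDC2-like cells for WT and H2-Aa cit/cit. The same cells at full depth had one in 73.0% and 80.5%, at median depths of 10822 and 8100.5 UMIs. In Lyz2 cDC2-like cells the thinned shares were 19.3% (13.9 to 25.6) and 36% (31.1 to 41.2), and in Ffar2 cDC2-like cells 11% (9.55 to 12.5) and 15.6% (14.6 to 16.7). Ly6c2+ Tcf4+ cells had 55.0% (41.6 to 67.9) and 38.8% (31.0 to 47.0), intervals that overlap. Of thinned pDC-like cells, 21 of 97 in WT and 24 of 97 in H2-Aa cit/cit had a Cd209a UMI, although the level was lower in H2-Aa cit/cit. As background, cDC1-like cells had 1.05% and 0.489% at median depths of 10934 and 15087 UMIs, and thinned NK-like cells had 0 of 33 in WT, which allows a share of up to 9.09%, and 0 of 22 in H2-Aa cit/cit, which allows up to 13.6%, at medians of 4575 and 3251.5 UMIs.

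**Figure D2:**
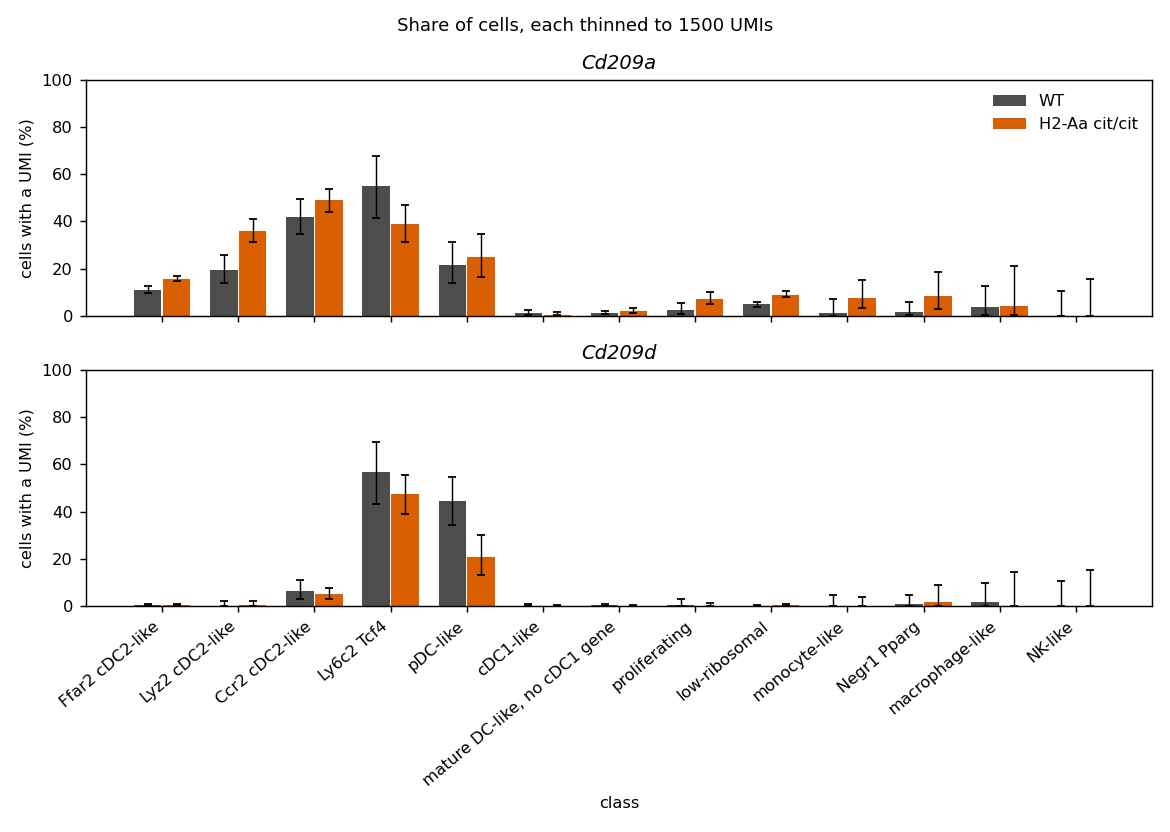
Percent of cells with at least 1 UMI of Cd209a (top) or Cd209d (bottom) by class, each cell thinned to 1500 UMIs, with WT in grey, H2-Aa cit/cit in orange and exact 95% binomial intervals as bars. Cd209a is found across the cDC2 classes, in 11% to 48.9% of cells, whereas Cd209d is found in 20.6% to 56.7% of Ly6c2+ Tcf4+ and pDC-like cells and in at most 6.32% of any cDC2-like class.

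Cd209d, a DC-SIGN relative with a far narrower range, had 49.4% of its WT UMIs in the 60 Ly6c2+ Tcf4+ cells and 29.1% in the 98 pDC-like cells. Its level in Ly6c2+ Tcf4+ cells was 1040.5 CPM for WT and 509 CPM for H2-Aa cit/cit (715 and 817 UMIs), and in pDC-like cells 418 and 239 CPM (422 and 161 UMIs). Ccr2 cDC2-like cells followed with 81.9 and 63.8 CPM, and Ffar2 and Lyz2 cDC2-like cells had no more than 5.30 CPM. In the WT Negr1 class 37 of its 38 UMIs came from 1 cell.

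Cd209d was lower in H2-Aa cit/cit in both of its main classes. In Ly6c2+ Tcf4+ cells the log2 ratio was -1.03 (-1.18 to -0.88), and over 9 alternative ways of processing it lay between -1.06 and -0.76. In pDC-like cells it was -0.80 (-1.08 to -0.54), and in Ccr2 cDC2-like cells -0.36 (-0.66 to -0.06), which fell short of 1.5-fold; this last ratio was -2.63 with classes from clusters and -0.04 without cells near a limit of a gate. In thinned cells the share with a Cd209d UMI was 44.3% (34.2 to 54.8) in WT and 20.6% (13.1 to 30) in H2-Aa cit/cit pDC-like cells, at full depth 74.5% and 43.4%. For Ly6c2+ Tcf4+ cells the thinned shares were 56.7% (43.2 to 69.4) and 47.4% (39.2 to 55.6), so that the intervals overlapped although the UMI ratio was larger. Thinned cDC1-like cells had 0.176% and 0.0%, the latter 0 of 613 cells, which allows up to 0.489%.

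Cd209a and Cd209d thus shared Ly6c2+ Tcf4+ and pDC-like cells and, among the cDC2-like classes, Ccr2 cDC2-like cells, which held 10.6% and 16.8% of the Cd209d UMIs of WT and H2-Aa cit/cit. Among thinned Ly6c2+ Tcf4+ cells of WT, Cd209d was found in 66.7% of cells with a Cd209a UMI (48.2 to 82.0) and in 44.4% of cells without one (25.5 to 64.7). The H2-Aa cit/cit cells had 44.1% and 49.5%. Both pairs of intervals overlap.

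Among the cDC2-like classes, both CD301 receptor genes were highest in the Ccr2 class. Clec10a was at 116 CPM for WT and 133 CPM for H2-Aa cit/cit in Ccr2 cDC2-like cells, at 32.6 and 29.0 CPM in Lyz2 cDC2-like cells and at 2.79 and 6.11 CPM in Ffar2 cDC2-like cells. Its highest level was in pDC-like cells, with 168 and 195 CPM, and Ly6c2+ Tcf4+ cells had 48.0 and 71.0 CPM. Mgl2, its neighbour in the genome, was at 92.0 and 107 CPM in Ccr2 cDC2-like cells but at only 22.8 and 31.2 CPM in pDC-like cells. The pair thus shared the Ccr2 class and parted in pDC.

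Neither CD301 gene differed past 1.5-fold in the cDC2-like classes where it reached 10 CPM. In Ccr2 cDC2-like cells the log2 ratio was 0.20 (-0.03 to 0.44) for Clec10a and 0.21 (-0.05 to 0.48) for Mgl2. Both intervals include 0. In Lyz2 cDC2-like cells Clec10a had a ratio of -0.17, which became -0.63, past 1.5-fold lower in H2-Aa cit/cit, without Lyz2 in the gate. The Ly6c2+ Tcf4+ class had 1 Mgl2 UMI for WT and 24 for H2-Aa cit/cit, 10 of them in 1 cell, for a ratio of 10.3 with an interval of 1.68 to 423. In WT Lyz2 cDC2-like cells 24 of the 46 Mgl2 UMIs lay in 1 cell, and leaving out the cell with the most Mgl2 UMIs from each library moved the log2 ratio from 0.18 to 1.06; in WT proliferating cells 18 of the 19 Clec10a UMIs did.

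Within the Ccr2 class Clec10a was found more often in cells that also had Cd209a. Of thinned WT cells with a Cd209a UMI, 21.9% had a Clec10a UMI (13.1 to 33.1), against 3.96% of cells without one (1.09 to 9.83). H2-Aa cit/cit cells had 22.3% (16.9 to 28.5) and 6.67% (3.78 to 10.8). For Mgl2 the H2-Aa cit/cit shares were 17.2% (12.4 to 22.9) and 4.44% (2.15 to 8.02), and those of WT were 15.1% (7.77 to 25.4) and 4.95% (1.63 to 11.2), which overlap. Clec4a3 showed no such split: 20.5% and 19.8% of WT cells with and without Cd209a had it, and 20.9% and 20% of H2-Aa cit/cit cells. Nor did Clec12a, at 19.2% and 22.8% in WT and 17.2% and 19.1% in H2-Aa cit/cit. A mean of 1.23 of the 9 lectins was detected per thinned WT cell of this class and of 1.39 per H2-Aa cit/cit cell, against 0.353 and 0.534 in Ffar2 cDC2-like cells.

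Clec4a1 and Clec4a3, DCIR family members, had their highest levels outside the cDC2. Monocyte-like cells had 338 and 400 CPM of Clec4a1 and 582 and 470.0 CPM of Clec4a3 in WT and H2-Aa cit/cit, and cells with Negr1 and Pparg had 336 and 461 CPM and 514 and 529 CPM. The monocyte-like and Negr1 classes overlapped within each library for both genes. Among the cDC2, Clec4a3 was graded in both libraries, with 153 and 170 CPM in Lyz2, 143 and 160 CPM in Ccr2 and 44.2 and 84.7 CPM in Ffar2 cDC2-like cells, the first pair of classes overlapping. Clec4a1 was more even, at 132 and 157 CPM in Lyz2, 101 and 130 CPM in Ccr2 and 101 and 134 CPM in Ffar2 cDC2-like cells. pDC-like and cDC1-like cells had at most 22.3 CPM of either.

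In the Ffar2 class Clec4a3 was the 1 lectin past 1.5-fold between the genotypes among the 5 at 10 CPM or more. Its 602 UMIs for WT and 2897 for H2-Aa cit/cit gave a level 1.92 times higher in H2-Aa cit/cit (1.76 to 2.10; log2 ratio 0.94), and the ratio stayed between 0.77 and 0.97 over 9 alternatives, which include leaving out all cells with a Cox6a2 UMI. The share of thinned Ffar2 cDC2-like cells with a Clec4a3 UMI was 5% in WT (4.02 to 6.13) and 10.8% in H2-Aa cit/cit (9.89 to 11.7), at full depth 18.9% and 32.7%, with thinned cDC1-like cells at 0.351% and 0.979%. The gap between the Ffar2 class and the other cDC2 was therefore smaller in H2-Aa cit/cit. Clec4a1 was higher there by 0.41 (0.32 to 0.50), under 1.5-fold. Below 10 CPM on average, Clec4n had 65 and 443 UMIs (log2 ratio 1.44, 1.06 to 1.84) and Clec10a 38 and 209 UMIs (1.13, 0.63 to 1.67), both higher in H2-Aa cit/cit. Ccr2 was also higher in H2-Aa cit/cit in this class, at 4.48 and 9.59 CPM, and the part of cell make-up in these ratios was not tested.

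Clec4a3 was also past 1.5-fold higher in H2-Aa cit/cit in low-ribosomal cells (19.1 and 44.8 CPM; log2 ratio 1.23, 0.89 to 1.58), proliferating cells (24.1 and 56.3 CPM; 1.23, 0.75 to 1.73) and mature DC-like cells without cDC1 genes (7.74 and 19.7 CPM; 1.35, 0.87 to 1.84). In the last class Clec4a1 went with it, at 14.9 and 36.5 CPM (1.29, 0.94 to 1.64). Under 10 CPM on average, cDC1-like cells were also higher in H2-Aa cit/cit for these genes. They had 4.88 and 11.1 CPM of Clec4a1 (1.18, 0.61 to 1.78) and 1.87 and 5.69 CPM of Clec4a3 (1.61, 0.71 to 2.61). Counts were not corrected for background RNA, and its part in such low levels was not tested. By contrast the classes where Clec4a3 is highest did not differ past 1.5-fold. Its log2 ratio was -0.31 (-0.56 to -0.06) in monocyte-like cells, 0.04 in the Negr1 class and -0.03 in macrophage-like cells. In Lyz2 and Ccr2 cDC2-like cells, which came next in level, it was 0.15 and 0.16. In Ly6c2+ Tcf4+ cells Clec4a1 had 9 and 45 UMIs and Clec4a3 had 3 and 30. The Clec4a1 ratio there changed sign from 1.10 to -0.21 when each cell counted equally, and the Clec4a3 ratio of 2.10 (0.41 to 4.45) fell to 0.31 with classes from clusters.

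**Figure D3:**
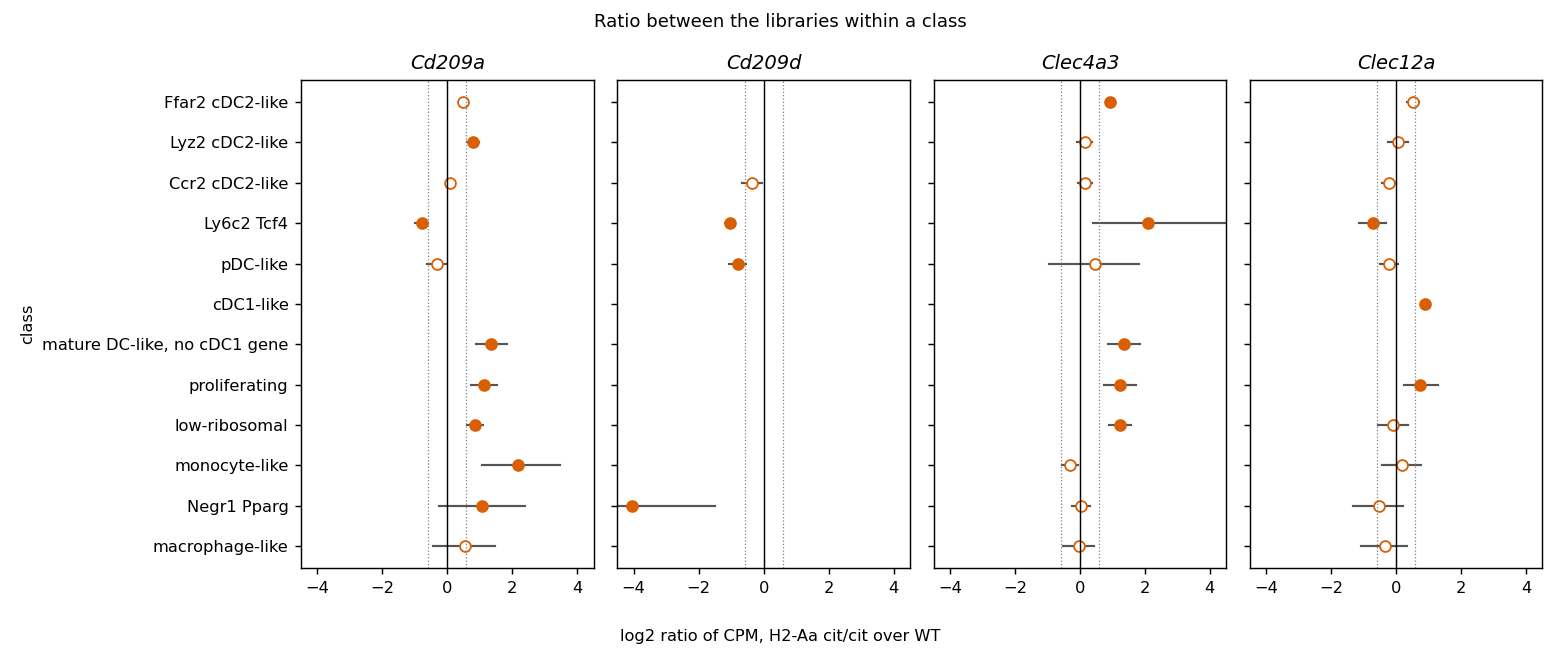
Log2 ratio of CPM, H2-Aa cit/cit over WT, of 4 lectin genes in each compared class at 10 CPM or more, with 95% counting intervals as bars, dotted lines at 1.5-fold and filled points past it. Cd209a lies at -0.79 in Ly6c2+ Tcf4+ cells and above 0.4 in the Ffar2 and Lyz2 classes. Cd209d lies left of 0 in each of its 4 classes, but in the Negr1 class 37 of its 38 WT UMIs came from 1 cell. Clec4a3 is at 0.94 in the Ffar2 class and near 0 in the Lyz2 and Ccr2 classes, and Clec12a is at 0.87 in cDC1-like cells. The bar of Cd209d in the Negr1 class runs past the axis.

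Clec12a, an inhibitory receptor used to mark the monocyte-like branch of cDC2, followed that branch here. It was at 154 and 132 CPM in Ccr2, 88.6 and 91.9 CPM in Lyz2 and 23.7 and 33.7 CPM in Ffar2 cDC2-like cells of WT and H2-Aa cit/cit. pDC-like cells had the highest level, 302 and 259 CPM, and macrophage-like cells had 179 and 140 CPM. The cDC2 classes did not differ between genotypes past 1.5-fold; the log2 ratio in the Ffar2 class was 0.51 (0.33 to 0.69), was 0.23 without cells with a Cox6a2 UMI, and was 0.61, past 1.5-fold, without cells near a limit of a gate.

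The largest shift of Clec12a by UMIs was in cDC1-like cells. They had 717 UMIs or 103 CPM in WT and 1757 UMIs or 189 CPM in H2-Aa cit/cit, a level 1.83 times higher (1.68 to 2; log2 ratio 0.87). Thinned shares were 13.2% (10.5 to 16.2) and 20.6% (17.4 to 24.0), at full depth 57.1% and 83.3%, and 0 thinned NK-like cells had a UMI. Beside this, Cox6a2 in these cells was at 0.430 CPM for WT and 265 CPM for H2-Aa cit/cit, the median depth was 10934 and 15087 UMIs, and the cells of the libraries lay mostly in different clusters. Without cells that had a Cox6a2 UMI the log2 ratio was 0.59, close to the limit of 1.5-fold. Ly6c2+ Tcf4+ cells had a lower level in H2-Aa cit/cit, 124 and 74.8 CPM (-0.73, -1.14 to -0.31), which was -0.39 with classes from clusters.

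Clec4n, whose product Dectin-2 binds mannans and signals through the Fc receptor gamma chain, had its highest level in macrophage-like cells, with 103 CPM for WT and 175 CPM for H2-Aa cit/cit. They held 19.8% of its UMIs for WT and 3.97% for H2-Aa cit/cit, where the far more numerous Ffar2 cDC2-like cells held 58.6%. Macrophage-like cells were shallow, with 4 hemoglobin genes among their 10 leading genes, and the level rested on 43 and 30 UMIs. The log2 ratio of 0.77 (0.05 to 1.48) fell to 0.16 with classes from clusters. In the cDC2 classes it was low, at 17.6 and 17.7 CPM in Lyz2 and 11.2 and 14.7 CPM in Ccr2 cDC2-like cells. Ffar2 cDC2-like cells had 4.77 and 13 CPM (65 and 443 UMIs; log2 ratio 1.44, 1.06 to 1.84), a gene under 10 CPM on average and so outside the count of genes past 1.5-fold. No UMI of Clec4n was found in pDC-like cells of either library.

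Ly75, a marker in many flow panels of cDC1 and mature DC, was no marker of cDC2 in these libraries. The 3 cDC2-like classes had 7.47 to 16.5 CPM, below the 36.3 and 55.2 CPM of NK-like cells, which rest on 7 UMIs each. Its highest comparable level was in mature DC-like cells without cDC1 genes, 470.1 CPM for WT and 339.7 CPM for H2-Aa cit/cit (3522 and 1703 UMIs). Mature DC-like cells with cDC1 genes had 903 CPM in 219 WT cells, while H2-Aa cit/cit had 25 such cells and no comparison was made. Such cells with undetected cDC1 genes may lie in the class without them, and their part in its Ly75 ratio was not tested. Cells with Negr1 and Pparg had 231 and 141 CPM, and cDC1-like cells 149 and 101 CPM.

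In the 2 compared classes with most Ly75 UMIs its level was lower in H2-Aa cit/cit, by less than 1.5-fold. The log2 ratio was -0.47 (-0.55 to -0.38) in mature DC-like cells without cDC1 genes and -0.57 (-0.70 to -0.44) in cDC1-like cells. Thinned shares were 41.6% (38.8 to 44.4) and 32.4% (29.5 to 35.5) in the former and 15.1% and 13.9% in the latter, with NK-like cells at 1 of 33 and 2 of 22. Without cells with a Cox6a2 UMI the log2 ratio in cDC1-like cells was -0.62, past 1.5-fold. In the Negr1 class the ratio was -0.71, past 1.5-fold. Not all classes had this direction: in Ffar2 cDC2-like cells, at 12.1 and 16.5 CPM (165 and 565 UMIs), it was 0.45 (0.20 to 0.71), and in low-ribosomal cells 0.07. Ratios of 1.53 in proliferating cells (12 and 77 UMIs, 20 of them in 1 cell) and -2.49 in macrophage-like cells (55 and 4 UMIs, 21 of the 55 in 1 cell) both changed sign with classes from clusters.

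The lectins past 1.5-fold are counted here class by class beside all genes. A ratio was counted where the gene had 10 CPM or more on average. In Ffar2 cDC2-like cells 1 of 5 lectins was past 1.5-fold, beside 3.94% of the 8251 genes at that level; in Lyz2 cDC2-like cells 1 of 8, beside 11.1%; and in Ccr2 cDC2-like cells 0 of 8, beside 8.17%. The median log2 ratio of the lectins was 0.49, 0.10 and 0.18 in these classes, and of all genes -0.01, 0.04 and 0.00. Ly6c2+ Tcf4+ cells had 5 of 6 past it, 2 higher and 3 lower, beside 18.0% of genes. Of these 5 only Cd209d was past it in every alternative, and the 2 higher ones, Clec4a1 and Clec4a3, had 9 and 3 UMIs in WT.

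Among the other classes, mature DC-like cells without cDC1 genes had 3 of 4 lectins past 1.5-fold, all higher in H2-Aa cit/cit, beside 5.54% of genes. Levels of these 3 were low, at 8.41 and 21.5 CPM for Cd209a, 14.9 and 36.5 CPM for Clec4a1 and 7.74 and 19.7 CPM for Clec4a3. The part of cells with undetected cDC1 genes in these ratios was not tested. Proliferating cells had 4 of 5 past it, all higher, beside 8.0%. Low-ribosomal cells had 2 of 5, both higher, beside 5.76%. The remaining classes were pDC-like cells with 2 of 7 beside 18.2%, cDC1-like cells with 1 of 2 beside 14.8%, monocyte-like cells with 1 of 5 beside 28.1%, the Negr1 class with 3 of 7 beside 34.6%, and macrophage-like cells with 2 of 6 beside 42.5%, shares that in small classes carry much counting noise. In all, 25 of 68 gene and class pairs were past 1.5-fold, 18 higher and 7 lower in H2-Aa cit/cit, and 16 of the 25 were so under every alternative that could be run. The 16 include Cd209a in the Negr1 class, on 12 and 11 UMIs with an interval of -0.25 to 2.38, which includes 0. They also include Cd209d there, on 38 and 1 UMIs, with 37 of the 38 in 1 cell. Leaving out the top cell of each library left no UMI in H2-Aa cit/cit, so that alternative gave no ratio. Few UMIs also carry Clec4a1 in pDC-like cells (9 and 15, log2 ratio 1.32, 0.04 to 2.70) and Cd209a in monocyte-like cells (8 and 40).

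Over all cells of a library, ratios combine levels within classes with the sizes of the classes. Ly75 was at 210 CPM for WT and 60.9 CPM for H2-Aa cit/cit (log2 ratio -1.78, -1.84 to -1.73). With the share of UMIs of each class held at that of WT its ratio was -0.69, past 1.5-fold, and with the shares of H2-Aa cit/cit it was -0.42, under it. The value of -0.69 takes the H2-Aa cit/cit level of mature DC-like cells with cDC1 genes from only 25 cells. It was not computed without that class. In WT 32.9% of Ly75 UMIs lay in mature DC-like cells without cDC1 genes and 25.4% in those with cDC1 genes, and the latter class held 2.19% in H2-Aa cit/cit. Cd209a was at 78.2 and 140 CPM (0.84, 0.79 to 0.90), and its ratio with WT shares was 0.44.

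Cd209d moved in the opposite sense when shares were held: from 28.4 and 19.5 CPM (-0.54, -0.65 to -0.43) its ratio became -0.77. Clec12a had 0.29 (0.22 to 0.36) over all cells, 0.31 at WT shares and 0.39 at H2-Aa cit/cit shares. Clec4a1 and Clec4a3 had 0.76 and 0.75 over all cells and 0.55 and 0.56 at WT shares. For Clec10a the values were 0.51 and 0.39, for Mgl2 0.75 and 0.53, and for Clec4n 1.29 and 1.14. At H2-Aa cit/cit shares the ratio of Cd209a was 0.36, of Cd209d -0.81, of Clec10a 0.36, of Mgl2 0.41, of Clec4a1 0.46 and of Clec4a3 0.66. No ratio changed sign with either set of shares.

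**Figure D4:**
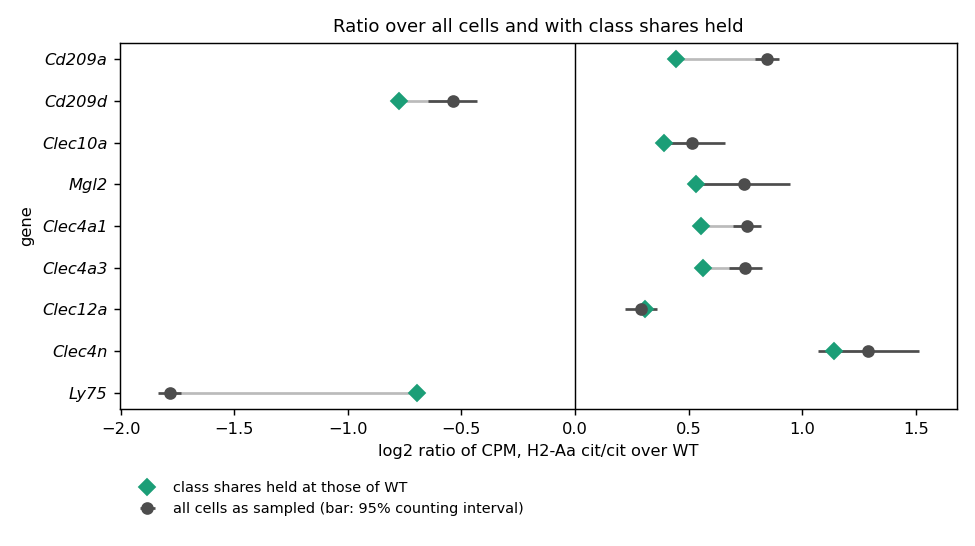
Log2 ratio of CPM, H2-Aa cit/cit over WT, for each of the 9 genes over all cells (circles, with 95% counting intervals) and with the share of each class held at that of WT (diamonds). The largest move is that of Ly75, from -1.78 to -0.69, and that of Clec12a is from 0.29 to 0.31. Classes too small to compare are included in the diamonds.

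Genes with the pattern most like each lectin were sought over 25 points, the classes of each library with at least 50 cells, among 6614 genes. The points come from 2 libraries and are not independent, so the Pearson correlations of log2(CPM + 5) are descriptions. For Cd209a the closest were Klrd1 (0.94), Fcor (0.89) and S100a6 (0.88), and for Cd209d Ak8 (0.94), Gm14161 (0.93) and Plxdc2 (0.90). Clec10a had Cd300c (0.88), Plxdc2 (0.87) and Mgl2 (0.85), and Mgl2 had Clec10a (0.85), Cd209a (0.76) and Siah2 (0.68). Clec4a1 had Gm5150 (0.97), Clec4a3 (0.96) and Sirpb1c (0.96), and Clec4a3 had Clec4a1 (0.96), Pilrb2 (0.95) and Adgre4 (0.94). The neighbours Mgl2 and Clec10a, and Clec4a1 and Clec4a3, thus appeared in each other's lists. Cd209a and Cd209d (0.64) did not, nor did Clec4a3 and Clec4n (0.76). Clec12a was closest to Mpeg1 (0.95), Cmtm7 and Psap (0.88 each), Clec4n to Axl and Tlr4 (0.89 each), and Ly75 to Prpf38b (0.95), C9orf72 (0.94) and Strip2 (0.93). Between lectins the lowest value was -0.78, for Cd209a and Ly75.

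Of 32 other C-type lectins, 20 reached 20 CPM in some class: Clec4a2, Clec4a4, Clec4b1, Clec4b2, Clec4d, Clec4e, Clec4g, Clec5a, Clec9a, Clec1a, Clec1b, Clec2d, Clec2i, Cd209e, Cd207, Mrc1, Mrc2, Cd302, Colec12 and Cd72. In Ffar2 cDC2-like cells 0 of 8 at 10 CPM were past 1.5-fold, beside 3.94% of all genes; Clec4a4, which codes for DCIR2, had 101 and 84.2 CPM and Clec4a2 69.3 and 72.5 CPM there. In Ccr2 cDC2-like cells, where 8.17% of all genes were past 1.5-fold, 3 of 13 were higher, among them Clec4a2 (55.9 and 99.3 CPM; log2 ratio 0.83) and the mannose receptor gene Mrc1 (10.6 and 21.1 CPM; 0.99), and 3 were lower: Clec9a (119.7 and 75.0 CPM; -0.67), Clec1a (-0.77) and Cd72 (-0.64). In Lyz2 cDC2-like cells, where 11.1% of all genes were past it, 2 of 9 were higher, Clec2i (50.2 and 96.5 CPM; 0.94) and Clec4a2 (53.4 and 84.1 CPM; 0.65), and 2 were lower, Cd302 (-0.92) and Clec1a (-0.75).

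In cDC1-like cells 0 of the 6 other lectins at 10 CPM or more were higher in H2-Aa cit/cit and 4 were lower, beside 14.8% of all genes past 1.5-fold either way. The receptor gene Clec9a, which binds actin of dead cells, had 548 and 454 CPM, short of 1.5-fold, while Clec1a was at 163 and 88.3 CPM (-0.89), Clec1b at 23.4 and 13.6 CPM (-0.78), Clec4b2 at 38 and 10.3 CPM (-1.88) and Cd207, which encodes langerin, at 35.3 and 1.93 CPM (-4.19, -4.97 to -3.50). Clec2d had 82.4 and 81.0 CPM. Below 10 CPM, Clec5a had 3 and 50 UMIs (3.64, 2.01 to 5.97) and Clec4b1 14 and 48 UMIs (1.36, 0.48 to 2.33), both higher in H2-Aa cit/cit. The different clusters and the Cox6a2 levels named above stand beside these values too.

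Genes of lectin signalling were counted in the same way. Of 22 listed, 21 reached 10 CPM in each cDC2-like class, and 0, 1 and 0 were past 1.5-fold higher and 1, 1 and 1 lower in the Ffar2, Lyz2 and Ccr2 classes, beside 3.94%, 11.1% and 8.17% of all genes. In cDC1-like cells 2 of 21 were higher and 5 lower, with a median log2 ratio of -0.25, beside 14.8% of all genes. Relb, the subunit of alternative NF-kB that DC use in maturation, was lower in H2-Aa cit/cit in Ffar2 cDC2-like cells (480.1 and 319 CPM; log2 ratio -0.59, -0.63 to -0.54) and in Lyz2 cDC2-like cells (330 and 172 CPM; -0.94), and had 153 and 112 CPM in Ccr2 cDC2-like cells (-0.45). Vav3, a guanine nucleotide exchange factor, was higher in Lyz2 cDC2-like cells (165 and 323 CPM; 0.96, 0.76 to 1.17) and had ratios of 0.23 and 0.24 in the Ffar2 and Ccr2 classes. Prkcd, the kinase between Syk and CARD9, was lower in Ccr2 cDC2-like cells (216 and 141 CPM; -0.61, -0.80 to -0.42), with 0.03 and -0.19 in the Ffar2 and Lyz2 classes.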

How the data were processed

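Spleen cells of 2 pools of mice, WT and H2-Aa cit/cit, were profiled by droplet 3′ single-cell RNA-seq. The deposited files hold raw UMI counts per gene and cell that the authors made with Cell Ranger 5.0.1 on mm10; the notes also name Seurat. The annotation, and the treatment of strand and of reads shared by related genes, are not given in the sources used here. No filter on cells was added.

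Cells were gated on the mean over marker genes of ln(1 + UMIs per 10000), with no C-type lectin in a gate, and limits were set after the scores had been seen. Cells under 1500 UMIs entered no cDC2 class, and cells with under 8% ribosomal UMIs formed the low-ribosomal class; 16636 of 19339 cells fell in a class. Names come from marker lists. UMIs were summed by class and library and divided by the class total (CPM), with exact Poisson intervals for levels, conditional binomial intervals for ratios and Clopper-Pearson intervals for shares (scipy 1.17.1). A floor of 3 UMIs stood for 0. A gene was counted as different past 1.5-fold at 10 CPM or more on average over the libraries. The scripts were tested on simulated data. Doublets were kept; leaving out the highest Scrublet scores (scanpy 1.11.5; 488 and 1063 cells) was an alternative, as were another scaling, a mean over cells, a mitochondrial limit of 10%, classes from Leiden clusters made without lectins, and leaving out cells near a limit. Others were added after seeing the data: no cells with a Cox6a2 UMI, no Lyz2 in the gate, and no cell with the most UMIs of the gene.

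Gene positions are from GENCODE vM21 and promoters from RefSeq. All members were named, other lectins at 20 CPM or more in a class, signalling genes past 1.5-fold in a cDC2 class, and the 3 genes most like each member at 50 CPM or more; 1 of these is not reported here. Members and lists were chosen with earlier results of these data known.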

Additional observations from a re-analysis of the deposited data

Results flagged for a closer look

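For 3 genes the ratio of H2-Aa cit/cit over WT had opposite directions in different classes, past 1.5-fold with intervals without 0 on both sides. With 1 library per genotype the difference between classes was not tested, and the spread within a genotype gave no outliers to look for. Cd209a had a log2 ratio of 2.17 in monocyte-like cells and -0.79 in Ly6c2+ Tcf4+ cells; the first rests on 8 and 40 UMIs. Clec12a had 0.87 in cDC1-like cells and -0.73 in Ly6c2+ Tcf4+ cells. Ly75 had 1.53 in proliferating cells and -2.49 in macrophage-like cells, where 4 UMIs were found in H2-Aa cit/cit, and both of these turned when classes came from clusters.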

How the results depend on the processing

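The count of 25 of 68 ratios past 1.5-fold was 15 at a limit of 2-fold and 12 of 42 for genes at 50 CPM or more, and within 1.5 times 25 under the other alternatives. Over all genes the share past 1.5-fold ran from 3.94% to 42.5% by class in the main run. This share was not computed under the alternatives. In the 3 cDC2-like classes 2 of 21 were past 1.5-fold, beside 3.94%, 11.1% and 8.17% of all genes in the Ffar2, Lyz2 and Ccr2 classes. The count of 2 was 4 with a mean over cells, 5 of 20 with classes from clusters and 5 without cells near a limit. It was 4 without the cell with the most UMIs of the gene and 0 at 2-fold. Of the ratios past 1.5-fold, the direction turned for Clec4a1 in Ly6c2+ Tcf4+ cells (-0.21 with a mean over cells, -0.040 without the highest doublet scores), for Ly75 in proliferating cells (-0.75 with clusters) and for Ly75 in macrophage-like cells (0.19 with clusters); the cause was not tested. Of the 43 ratios not past 1.5-fold, 17 had either sign over the alternatives, such as Mgl2 in pDC-like cells (0.45, and -1.03 without the highest doublet scores). Another scaling and the mitochondrial limit moved none of the 68 ratios beyond their intervals, and classes from clusters moved most, 20 of 60, and also 64 of 136 levels. Of 85 thinned shares, 73 moved without thinning and 48 at 1000 UMIs. No paired analysis was possible because each genotype has 1 library, and for the same reason no replicate could be left out. Depth limits the small classes most: ratios of members with few UMIs in monocyte-like, Negr1 and macrophage-like cells rest on 1 or a few cells.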

Other observations

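Other lectins had their highest level outside the cDC2-like classes. Clec2d, the ligand gene of the NK receptor NKR-P1B, was at 437 CPM for WT and 511 CPM for H2-Aa cit/cit mature DC-like cells without cDC1 genes, and Mrc2 at 67.1 and 62.0 CPM there. Cd209e, which lies between Cd209a and Cd209d, was highest in Ly6c2+ Tcf4+ cells, with 42.2 and 43.6 CPM, the class where Cd209a and Cd209d were lower in H2-Aa cit/cit. Clec4g was highest in pDC-like cells, at 45.6 and 26.8 CPM, and Cd72 in cells with Negr1 and Pparg, at 293 and 170.0 CPM. Macrophage-like cells had 115 and 216 CPM of Mrc1. The 11 WT and 18 H2-Aa cit/cit neutrophil-like cells, too few to compare, had 420.0 and 56.0 CPM of Clec4d.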
